A study of Rattus norvegicus with 6 samples.

Results

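The expression of 10 macrophage markers was examined in the dorsal root ganglia (DRG) of rats after chronic constriction injury (CCI) of the sciatic nerve. They were chosen by name and located by gene symbol among the 43350 gene rows of the deposited table, where a protein-coding row was taken first and then the row with the most counts. General markers and state markers were Cd68, Lyz2, Aif1, Adgre1, Tmem119, Arg1 and Gpnmb, and Cd163, Mrc1 and Lyve1 were set against them as markers of a resident subset. All 10 were found and all 10 were among the 26663 rows tested.

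The study had 2 groups of male Sprague-Dawley rats without any genetic change, and their age is not among the labels. In the CCI group (n = 3) the left sciatic nerve was loosely ligated, and in the sham group (n = 3) the nerve was exposed but not ligated, although the labels give the sham rats no treatment. The lumbar 4 to 6 DRG of the operated side were taken on day 11, after perfusion with saline, and total RNA was sequenced after ribosomal RNA had been depleted. Per the study's methods each sample came from 1 rat, chosen among rats that had behaved as the model predicts, while the labels speak of a pooled sample at the library step. The ganglia are whole tissue, so a marker shared by several cell types is not resolved to a cell, and more macrophages cannot be told apart from more RNA in each macrophage.

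Macrophages live in every sensory ganglion, around neurons and along vessels, and they become more prominent there after the axon of the neuron has been injured in the periphery. Their general markers are proteins of the lysosome, of the secretory pathway or of the cell surface that most macrophages make. Subset markers are scavenger and carbohydrate receptors that are most abundant on resident macrophages beside vessels and in connective tissue. A rise of general markers without subset markers can therefore be looked for in bulk RNA, which is the contrast examined here.

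Total counts lay between 75423546 and 87615743 in the 6 libraries, and each member had between 43 and 25749 counts in a library. No 2 libraries of a group agreed within counting error. Sham 1 stood apart with skeletal muscle genes (Acta1, Tnni2, Mylpf, Ckm and Actn3, which were called lower, and 3 others), whose summed level was 424 CPM (counts scaled to library size) there and 9.03 to 54.4 CPM in the other libraries. CCI 1 had the lowest sum of fibroblast genes (Col1a1, Col3a1 and 5 others found), at 1659 CPM against 2491 to 2815 CPM elsewhere. Rbfox3, Nefh and Nefm of sensory neurons, Fabp7, Kcnj10 and Glul of satellite glia, and Mbp and Pmp22 of Schwann cells had counts in every library. None of these 3 lists held a called gene. Of 10 neuron genes 2 were positive, and 5 had an unadjusted p below 0.05 in edgeR's test, with log2 fold changes of -0.55 for Nefh, -0.39 for Snap25, -0.15 for Calca, 0.31 for Tubb3 and 0.25 for Prph. Over all rows tested, 10.7% had such a p. Of 6 Schwann cell genes 0 were positive and 0 had an unadjusted p below 0.05 in edgeR's test, and of 7 satellite glia genes Cdh19 did, at 0.37. The neuron list summed to 9962 to 11560 CPM in the CCI group and 11500 to 12290 CPM in the sham group, and the part of these cells in the marker levels was not tested.

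Of the 10 members, 4 were called higher in the CCI group and 0 lower. A call used the study's own limits, an absolute log2 fold change of 0.58 or more with an unadjusted p below 0.05. The study counted mRNAs, whereas rows of every type were tested here, so the calls are not the study's list and are more numerous. Over all rows tested, 2.57% were called higher and 1.26% lower at these limits. The 4 genes were Cd68, Lyz2, Tmem119 and Arg1, so that 4 of the 7 other markers and 0 of the 3 subset markers were called. A count of 0 among 3 is not apart from the background share. The same 4 genes had every CCI library above every sham library, which held for 8.63% of the rows tested. After Benjamini-Hochberg adjustment over all rows, 0 members passed 0.05 with edgeR, against 0.0938% of the rows tested. At an unadjusted p under 0.05 alone, 5 members passed with edgeR, against 10.7% of all rows, and 6 with DESeq2, against 10.9%. After adjustment 3 members passed with DESeq2 (Cd68, Lyz2 and Arg1), a tool that called 2.81% of all rows. With limma 0 members passed, against 0.0675% of all rows on log2(FPKM + 0.1) and 0.0713% on log2(FPKM + 1). The median log2 fold change was 0.87 over the 7 other markers, -0.0033 over the 3 subset markers and 0.0055 over all rows tested.

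**Figure D1:**
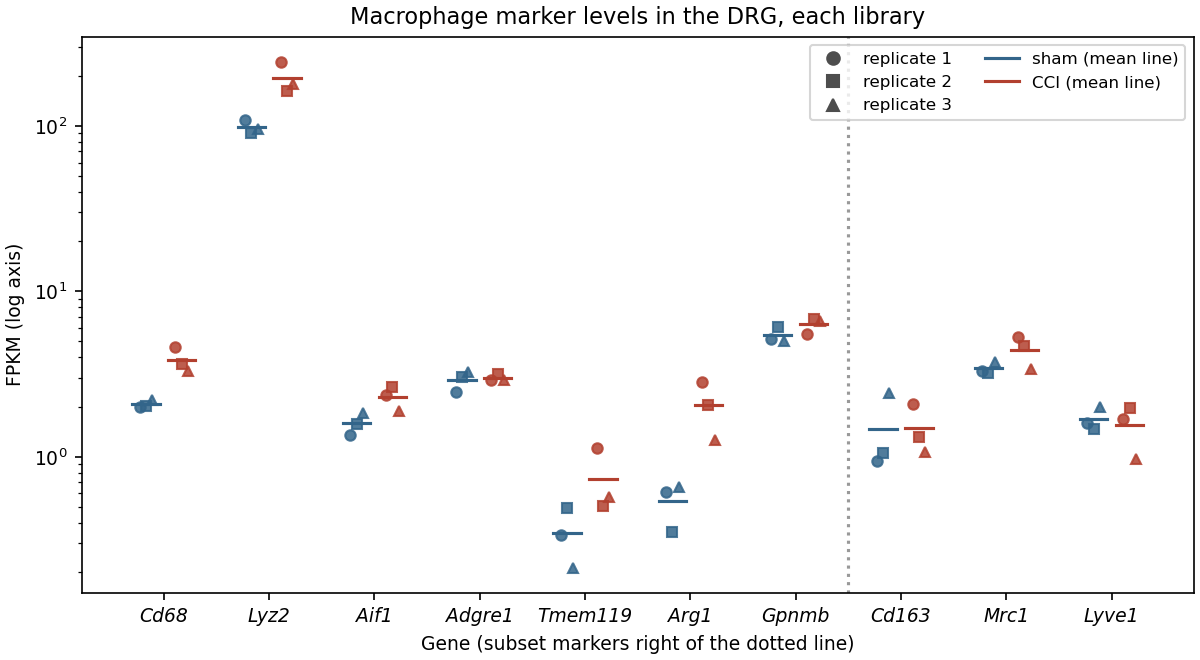
FPKM (log axis) of the 10 markers in each library, with sham in blue, CCI in red, a symbol for each replicate and a line at each group mean (n = 3). The red symbols of Cd68, Lyz2, Tmem119 and Arg1 all lie above the blue ones, whereas those of Cd163, Mrc1 and Lyve1 overlap them.

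Cd68 encodes a heavily glycosylated protein of the lysosomal membrane and is a general marker of macrophages. It lies on chromosome 10 from 56268720 to 56270640, in the coordinates the deposited table gives for the rat genome the authors call V101. FPKM, the fragments per kilobase of transcript scaled to library size, was 4.62, 3.62 and 3.32 in CCI 1, 2 and 3 and 1.99, 2.02 and 2.21 in sham 1, 2 and 3. Every CCI library was above every sham library, and CCI 1 was the highest. The group means were 3.85 ± 0.678 and 2.07 ± 0.121 FPKM (SD, n = 3). In the model fitted to the counts of all rows, Cd68 was 1.83-fold higher in the CCI group, with a 95% interval of 1.37 to 2.46-fold. Its log2 fold change of 0.87 had a standard error of 0.18 (edgeR, unadjusted p = 0.00201 and adjusted p = 0.169). The study picked Cd68 and Arg1 for quantitative PCR among genes it had called higher in these libraries, so that choice depends on the calls. By that PCR it reported both as significantly higher in the CCI group.

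Lyz2 encodes lysozyme, a bacteriolytic enzyme that macrophages and granulocytes secrete, and was by far the most abundant member. Its row on chromosome 7 (60335969 to 60341264) measured 243, 163.5 and 179.9 FPKM in CCI 1, 2 and 3 and 108, 90.5 and 95.2 FPKM in sham 1, 2 and 3. The lowest CCI library was thus well above the highest sham library. Means were 195.5 ± 42.0 FPKM in the CCI group and 97.9 ± 9.04 FPKM in the sham group (SD, n = 3). The increase was 1.98-fold, with a 95% interval of 1.52 to 2.57-fold, and its adjusted p of 0.109 (edgeR) was the lowest of the 10 members. Lysozyme genes are similar in sequence, so some reads of this row may belong to a relative. Lyz2 is also made by neutrophils, whose list summed to 16.1, 12.96 and 11.4 CPM in CCI 1, 2 and 3 and to 26.1, 10.04 and 8.71 CPM in sham 1, 2 and 3. Sham 1, the library with the muscle genes, was the highest, and sham 2 and 3 were below every CCI library. S100a8 of that list likewise had 525 counts in sham 1 and 167 and 132 in sham 2 and 3, against 248, 154 and 146 in CCI 1, 2 and 3. Of the 5 genes tested 0 were called or reached an unadjusted p under 0.05 in edgeR's test, and the part of neutrophils in the Lyz2 level was not tested.

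Aif1 and Adgre1, the other general markers, were not called. Aif1 encodes Iba1, an actin-binding protein by which macrophages and microglia are stained. On chromosome 20 (5161333 to 5166252), it had 2.35, 2.63 and 1.88 FPKM in CCI 1, 2 and 3 and 1.36, 1.59 and 1.85 FPKM in sham 1, 2 and 3. CCI 1 and 2 were above every sham library, while CCI 3 was level with sham 3. The log2 fold change was 0.50 with a 95% interval of 0.02 to 0.98 (edgeR, unadjusted p = 0.0434), which is under the fold limit. Without CCI 3 or without sham 3 it became 0.62 and was called. Adgre1 encodes the adhesion receptor F4/80. It had 2.92, 3.15 and 2.93 FPKM in CCI 1, 2 and 3 and 2.46, 3.04 and 3.25 FPKM in sham 1, 2 and 3, and the CCI libraries lay within the range of the sham libraries. Its log2 fold change of 0.02 had a 95% interval of -0.29 to 0.33, so a change of the size seen in Cd68 lies outside that interval. A general marker thus stood beside the subset markers in this comparison. The sign of the Adgre1 difference turned to -0.0138 without CCI 2 and to -0.094 without sham 1.

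Tmem119 encodes a membrane protein used to tell microglia from other brain macrophages and is also made by bone-forming cells. It was the least abundant member, on chromosome 12 from 48598647 to 48605704. Its reads numbered 218, 96 and 103 in CCI 1, 2 and 3 against 71, 94 and 43 in sham 1, 2 and 3, or 0.732 ± 0.343 and 0.348 ± 0.140 FPKM (SD, n = 3). CCI 2, with 0.502 FPKM, lay next to sham 2, with 0.493 FPKM, so that the groups were parted by a narrow margin and the distance of the means came mainly from CCI 1. The 95% interval of its log2 fold change of 1.06 reached from 0.0031 to 2.11 (edgeR, unadjusted p = 0.0495 and adjusted p = 0.464). The call was lost in 9 of 15 alternatives. Without CCI 1 the log2 fold change fell to 0.60, and with the replicate number as a block it was 1.04 and not called (unadjusted p = 0.0655 in edgeR's test). Of the other microglia-type genes, 7 of 8 tested were positive, with a median log2 fold change of 0.16, and P2ry12, a purine receptor, was the exception at -0.07. The list summed to 83.5 to 91.0 CPM in the CCI group and 70.0 to 77.4 CPM in the sham group, without overlap. Sall1, a transcription factor of microglia, averaged less than the 0.5 FPKM required for testing. Selplg, a selectin ligand, was the 1 gene called (2.57% of all rows were called higher), with a log2 fold change of 1.10 (standard error 0.22). Gpr34 and Tgfbr1 had an unadjusted p below 0.05 in edgeR's test but stayed under the fold limit, at 0.47 and 0.38.

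Arg1 encodes arginase, which splits arginine into urea and ornithine and is a classic marker of alternative activation. Of the 10 members it had the largest change. On chromosome 1 from 21525421 to 21537863, its reads numbered 380, 271 and 157 in CCI 1, 2 and 3 against 88, 47 and 91 in sham 1, 2 and 3. These are 2.85, 2.05 and 1.26 FPKM and 0.611, 0.350 and 0.659 FPKM. Each CCI library was above the highest sham library, though the CCI libraries differed among themselves by more than those of Cd68. Arg1 was 3.74-fold higher in the CCI group, with a 95% interval of 1.98 to 7.06-fold (log2 fold change 1.90 with standard error 0.38, edgeR adjusted p = 0.167). It was called in all 16 alternatives. The part of neurons or other cells of the ganglion in the Arg1 level was not tested. Of 6 tested genes among 12 others of alternative activation, 2 were called higher, namely Clec7a, a receptor for fungal glucans, at a log2 fold change of 2.31 (standard error 0.28), and Il4r, the interleukin-4 receptor, at 0.78 (standard error 0.15). Retnla and Il10 were under the filter, while Pparg and Klf4 had log2 fold changes of -0.0063 and -0.15 and were not called. The median of the 6 was 0.11, and over all rows tested 2.57% were called higher.

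Gpnmb encodes a transmembrane glycoprotein of phagocytes that take up lipid-rich debris, and of melanocytes. It had 5.53, 6.83 and 6.61 FPKM in CCI 1, 2 and 3 and 5.17, 6.12 and 4.98 FPKM in sham 1, 2 and 3. The ranges overlapped, with CCI 1 below sham 2. The log2 fold change was 0.20 with a 95% interval of -0.09 to 0.50, and it was not called. Of 10 tested genes among 12 others of lipid-handling phagocytes, 1 was called higher (2.57% of all rows were), Itgax, an integrin subunit, at a log2 fold change of 0.82 (standard error 0.33). Spp1, Lgals3 and Fabp5 of that list had log2 fold changes of 0.25, 0.15 and 0.53 and were not called, and the median was 0.20. Apoe, at 955 FPKM in the CCI group and 920.5 FPKM in the sham group, is also on the satellite glia list. The lipid-handling list is thus not particular to phagocytes. Fabp5, Cd63 and Plin2 of the list had an unadjusted p below 0.05 in edgeR's test but stayed under the fold limit. Of the melanocyte genes, Pmel measured 1.53 FPKM in the CCI group and 1.35 FPKM in the sham group, and Mlana and Tyr had no count in any of the 6 libraries. Tyrp1, an enzyme of melanin synthesis, was abundant, at 130.4 FPKM in the CCI group and 141.5 FPKM in the sham group (log2 fold change -0.13, not called). The list summed to 368 to 412 CPM in the CCI group and 384.5 to 448 CPM in the sham group, nearly all of it Tyrp1, and the part of such cells in the Gpnmb level was not tested.

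None of the subset markers was called. Cd163 encodes a scavenger receptor that clears complexes of haemoglobin and haptoglobin. Its main row, on chromosome 4 from 156752082 to 156785467, had 2.09, 1.32 and 1.07 FPKM in CCI 1, 2 and 3 and 0.944, 1.06 and 2.43 FPKM in sham 1, 2 and 3. Sham 3 had the highest value of all 6 libraries and sham 1 and 2 the lowest, so that the sham group spanned the whole CCI range. The log2 fold change was -0.0033 with a 95% interval of -1.04 to 1.03, so that neither a rise nor a fall of the size of the Cd68 change lies outside that interval. Without sham 3 it was 0.56 (edgeR, unadjusted p = 0.132). Without CCI 1 it was -0.33, the lowest value with any library left out.

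Another 2 rows carry the symbol Cd163, assembled loci of 415.7 and 418.9 kb that span the main row. Their counts were 51, 179 and 0 and 50, 135 and 0 in CCI 1, 2 and 3, and 153, 0 and 148 and 95, 37 and 102 in sham 1, 2 and 3. The 3 rows summed to 896, 808 and 378 counts in CCI 1, 2 and 3 and to 636, 435 and 1200 counts in sham 1, 2 and 3. The log2 ratio of the group means of these sums was -0.07. A row of the complement protease gene C1s on the other strand covers the same interval, with 2780 to 5981 counts. The library kit marked strand, but whether the counting used it is not stated, so a part of either gene's reads may be in the other's row.

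Mrc1 encodes the mannose receptor CD206, which takes up glycoproteins, and was the most abundant subset marker. On chromosome 17 (81352700 to 81433743), it had 5.28, 4.70 and 3.37 FPKM in CCI 1, 2 and 3 and 3.28, 3.23 and 3.75 FPKM in sham 1, 2 and 3. CCI 1 and 2 were above every sham library, and CCI 3 was below sham 3. The log2 fold change was 0.36 with a 95% interval of -0.05 to 0.78 (edgeR, unadjusted p = 0.0766 and adjusted p = 0.535). This interval includes both no change and the lower part of the interval of Cd68. DESeq2 gave Mrc1 an unadjusted p of 0.0478, and without CCI 3 the log2 fold change was 0.53 (edgeR, unadjusted p = 0.00371). The fold limit was passed in 0 of 16 alternatives. The row of the microRNA gene Mir511, which lies inside Mrc1 on the same strand, had 0 to 6 counts in these libraries.

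Lyve1 encodes a hyaluronan receptor of perivascular macrophages and of lymphatic endothelium. On chromosome 1 from 175663266 to 175676699, it had 1.69, 1.98 and 0.973 FPKM in CCI 1, 2 and 3 and 1.61, 1.46 and 1.99 FPKM in sham 1, 2 and 3. CCI 3 was the lowest of all libraries and the other 5 were mixed. The log2 fold change of -0.14 had a 95% interval of -0.81 to 0.53 and changed sign without CCI 3, to 0.11, and without sham 3, to 0.0044. Of the lymphatic genes, Prox1 was under the filter at 0.198 and 0.200 FPKM in the CCI and sham groups. Log2 fold changes were 0.29 for Flt4, 0.16 for Pdpn, 0.28 for Ccl21, -0.69 for Mmrn1 and -0.08 for Reln, of which 0 were called or had an unadjusted p below 0.05 in edgeR's test. The list summed to 465 to 496 CPM in the CCI group and 483 to 527 CPM in the sham group, but most of that sum is Reln, with 33158 to 41215 counts in a library, so it says little about lymphatic cells. The part of lymphatic cells in the Lyve1 level was not tested.

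**Figure D2:**
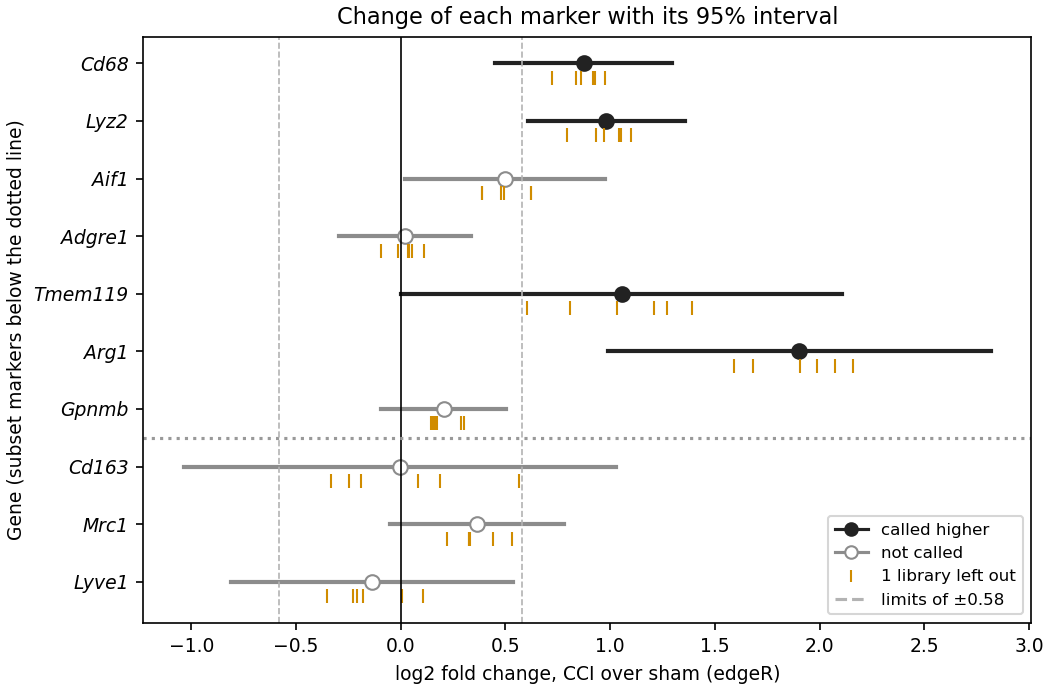
Log2 fold change of each marker, CCI over sham, with the 95% interval derived from edgeR's quasi-likelihood test as a bar, filled points for called genes, and orange ticks for the value with each of the 6 libraries left out. The ticks of Cd68, Lyz2 and Arg1 stay right of the 0.58 limit, those of Tmem119 start at 0.60, and those of Cd163 run from -0.33 to 0.56 across 0.

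The contrast between the subset markers and the others was then taken within each library, where depth and scaling cancel. The ratio of Cd163 counts to Cd68 counts was 1.56, 1.25 and 1.10 in CCI 1, 2 and 3 and 1.63, 1.80 and 3.76 in sham 1, 2 and 3. For Mrc1 the ratio was 4.81, 5.47 and 4.27 in CCI 1, 2 and 3 and 6.95, 6.72 and 7.12 in sham 1, 2 and 3. For Lyve1 it was 0.908, 1.36 and 0.731 in CCI 1, 2 and 3 and 2.00, 1.80 and 2.23 in sham 1, 2 and 3. All 3 ratios were lower in every CCI library than in every sham library, with CCI 1 close to sham 1 for Cd163. How many of all rows tested fall in this way relative to Cd68 was not counted, so no background share stands beside this. On the log2 scale the group means differed by -0.79 for Cd163, -0.52 for Mrc1 and -1.05 for Lyve1. An exact permutation test over the 6 libraries, two-sided, gave p = 0.1 for each of the 3, which is also the Benjamini-Hochberg adjusted value and the smallest p this test can give with 3 against 3, so it cannot reach 0.05 here. Without sham 3 the difference for Cd163 was -0.41.

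These differences contain the change of Cd68 itself, since a gene whose level stays the same falls relative to a gene that rises. With Aif1 as the reference they were -0.42 for Cd163 and -0.16 for Mrc1, where the groups overlapped (exact permutation p = 0.4 and 0.3), and -0.68 for Lyve1, where they did not (exact permutation p = 0.1). Nor was the lower ratio particular to the subset markers. Relative to Cd68, Adgre1 differed by -0.83 and Gpnmb by -0.66 on the log2 scale, without overlap of the groups. Of the 9 ratios to Cd68, 5 were lower and 1 higher without overlap, the higher one being that of Arg1 at 1.02. These counts too lack a share over all rows, so they are a description of the members. Lyz2 moved with Cd68, with a log2 ratio of 5.60 ± 0.14 in the CCI group and 5.49 ± 0.18 in the sham group (SD, n = 3).

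As a description over the whole set, the mean log2 CPM of the 3 subset markers was 3.58, 3.37 and 2.76 in CCI 1, 2 and 3 and 2.94, 2.96 and 3.58 in sham 1, 2 and 3. The groups overlapped fully, with the highest values in CCI 1 and sham 3. The mean log2 CPM of the 7 other markers was 3.43, 3.14 and 2.98 in CCI 1, 2 and 3 and 2.37, 2.42 and 2.42 in sham 1, 2 and 3. Here the groups were apart and the sham libraries nearly level. The difference of the 2 means was 0.14, 0.22 and -0.21 in CCI 1, 2 and 3 and 0.57, 0.54 and 1.16 in sham 1, 2 and 3, on average lower by -0.71 in the CCI group. Without Arg1 and Tmem119 among the other markers it was -0.44.

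**Figure D3:**
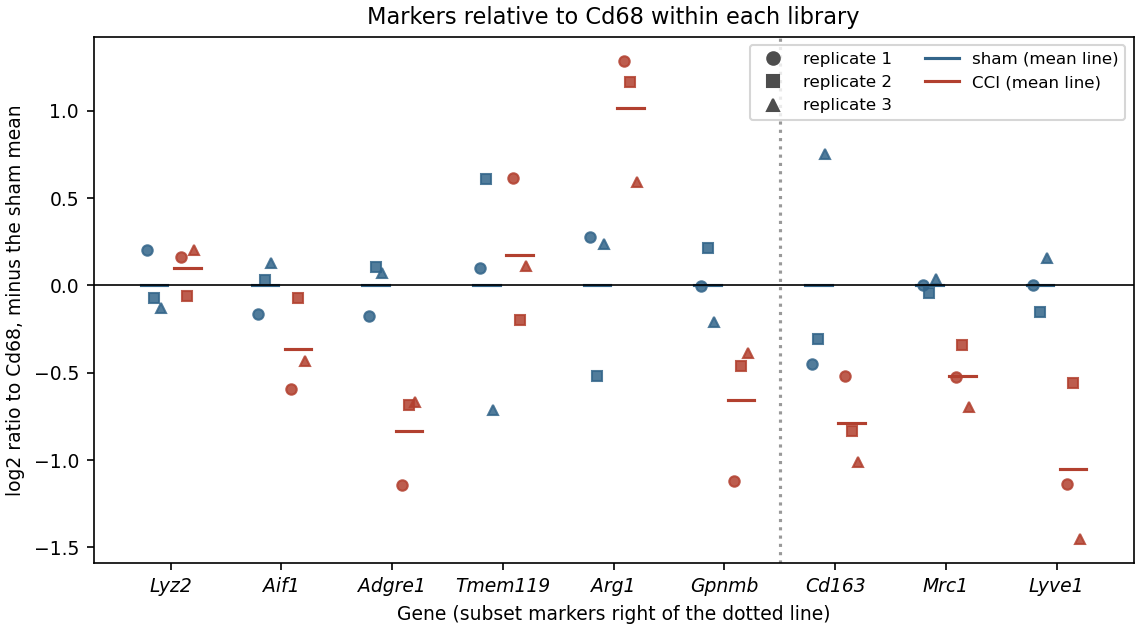
Log2 ratio of each marker's counts to those of Cd68 in each library, shifted so that the sham mean of each gene is at 0, with sham in blue and CCI in red (n = 3). The red symbols of Cd163, Mrc1, Lyve1, Adgre1 and Gpnmb lie below all blue ones, those of Arg1 lie above, and those of Lyz2, Aif1 and Tmem119 overlap.

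Levels between genes were compared in FPKM, which is per length. In the sham group the order was Lyz2, Gpnmb, Mrc1, Adgre1, Cd68, Lyve1, Aif1, Cd163, Arg1 and Tmem119. Values of neighbours overlapped between Mrc1 and Adgre1, between Lyve1, Aif1 and Cd163 in turn, and between Arg1 and Tmem119. In the CCI group Mrc1 (4.45 ± 0.977 FPKM) and Cd68 (3.85 ± 0.678 FPKM) followed Lyz2 and Gpnmb, and overlapped each other. Adgre1 came next and overlapped neither neighbour. Aif1, Arg1, Lyve1, Cd163 and Tmem119 followed, each overlapping the next. Arg1 (2.05 ± 0.793 FPKM) thus stood ahead of Lyve1 (1.55 ± 0.519 FPKM) and Cd163 (1.49 ± 0.533 FPKM, each SD, n = 3). Cd163 had the widest relative spread within the sham group, with an SD of 55.8% of its mean, and Cd68 the narrowest, with 5.84%. Within the CCI group CCI 1 was highest in 6 of the 10 members and CCI 3 lowest in 7, and within the sham group sham 3 was highest in 7.

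For 7 of the members (Cd68, Lyz2, Adgre1, Cd163, Mrc1, Lyve1 and Gpnmb) a promoter was at hand in RefSeq on the GRCr8 assembly, from 250 bases before to 50 bases after the start of the gene. Those of Cd68 and Lyz2, which were called higher together, and of the 3 subset markers, which were not, are shown 5′ to 3′ on the strand of the gene, with matches to 4 motifs in capitals. The motifs, searched on both strands, were GAGGAAGT of the myeloid factor PU.1, TGANTCA of AP-1, TTGCNNAA of C/EBP factors and the TATA box TATAAA.
Cd68: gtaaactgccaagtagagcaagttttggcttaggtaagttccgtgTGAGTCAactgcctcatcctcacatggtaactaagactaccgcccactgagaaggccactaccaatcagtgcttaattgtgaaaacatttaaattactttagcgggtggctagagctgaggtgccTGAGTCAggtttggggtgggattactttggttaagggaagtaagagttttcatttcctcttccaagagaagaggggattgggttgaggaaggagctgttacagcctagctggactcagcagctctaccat
Lyz2: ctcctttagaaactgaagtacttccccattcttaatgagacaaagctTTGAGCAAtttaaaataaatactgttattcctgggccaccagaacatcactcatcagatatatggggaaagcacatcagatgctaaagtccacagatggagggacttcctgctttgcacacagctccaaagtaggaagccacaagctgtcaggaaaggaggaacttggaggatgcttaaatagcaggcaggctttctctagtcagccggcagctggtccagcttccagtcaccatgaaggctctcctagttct
Cd163: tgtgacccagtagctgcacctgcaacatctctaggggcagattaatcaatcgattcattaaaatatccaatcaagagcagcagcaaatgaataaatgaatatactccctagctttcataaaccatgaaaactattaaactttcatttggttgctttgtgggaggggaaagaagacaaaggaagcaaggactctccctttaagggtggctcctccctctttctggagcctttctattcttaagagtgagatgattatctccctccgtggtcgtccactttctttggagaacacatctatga
Mrc1: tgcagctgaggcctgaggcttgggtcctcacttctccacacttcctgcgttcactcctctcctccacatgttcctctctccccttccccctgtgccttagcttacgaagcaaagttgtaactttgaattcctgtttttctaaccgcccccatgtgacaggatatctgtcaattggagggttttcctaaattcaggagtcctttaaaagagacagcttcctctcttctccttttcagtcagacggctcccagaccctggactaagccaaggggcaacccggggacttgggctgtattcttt
Lyve1: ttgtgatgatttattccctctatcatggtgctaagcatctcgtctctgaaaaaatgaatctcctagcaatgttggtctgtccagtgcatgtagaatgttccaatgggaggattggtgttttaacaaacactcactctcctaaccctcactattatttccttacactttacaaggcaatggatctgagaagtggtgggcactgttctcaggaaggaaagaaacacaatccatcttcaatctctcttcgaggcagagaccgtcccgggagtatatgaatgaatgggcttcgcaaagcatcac
The Cd68 promoter (chromosome 10, 54882392 to 54882691, minus strand) held 2 AP-1 matches, which begin 205 and 80 bases before the start, and 7.33% of 33469 rat promoters of the same length hold at least 1. The Lyz2 promoter (chromosome 7, 54797962 to 54798261, minus strand) held 1 C/EBP match on the opposite strand, found in 10.6% of promoters, with its first letter 203 bases before the start. The windows of Cd163 (chromosome 4, 158770524 to 158770823, plus strand), Mrc1 (chromosome 17, 82157475 to 82157774, plus strand) and Lyve1 (chromosome 1, 174410928 to 174411227, minus strand) held no match to these letters. Among the 2 members not shown, Gpnmb held 1 AP-1 match and Adgre1 held 1 C/EBP match, although neither gene was called. PU.1 and TATA box letters, found in 2.42% and 14.2% of promoters, were in none of the 7 windows.

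Other genes of the same cells were read beside the members from lists of known markers. Over all rows tested, 2.57% were called higher at the study's limits. Of 20 other macrophage and myeloid genes 19 were tested and 10 were called higher, with a median log2 fold change of 0.75 and a positive value in all 19. Among them were Csf1r, the receptor of the macrophage growth factor, at 0.75 (standard error 0.17), Cx3cr1, the fractalkine receptor, at 1.11 (standard error 0.20), Ctss, a lysosomal protease, at 1.06 (standard error 0.14), and Spi1, which encodes PU.1, at 0.88 (standard error 0.18). The complement genes C1qa, C1qb and C1qc were at 1.13, 1.12 and 0.98. The other called genes were Fcgr3a, an antibody receptor, at 1.54, Itgb2, an integrin subunit, at 1.06, and Tyrobp, a signalling adaptor, at 0.88. Itgam, the integrin subunit CD11b, was not called at 0.33 (standard error 0.20). Cd14 and Trem2 were near no change, at 0.03 and 0.06, and the rest of those not called lay between 0.20 and 0.52. The highest of them, Ptprc, had an unadjusted p below 0.05 in edgeR's test. The summed level of the list was 209 to 269 CPM in the CCI group and 146.5 to 161 CPM in the sham group, without overlap.

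Genes that accompany the subset markers in resident perivascular-type macrophages were counted in the same way, beside the same 2.57% of all rows called higher. Of 18 on that list 10 were tested and 1 was called higher, Clec10a, a lectin receptor, at a log2 fold change of 0.84 (standard error 0.25), with a median of 0.03. Folr2, a folate receptor, was at 0.59 (standard error 0.33) and was not called, with an interval that includes 0. F13a1, a subunit of a clotting factor, was at -0.52 (standard error 0.16, edgeR unadjusted p = 0.0142), under the fold limit. Gas6, a ligand of phagocytic receptors, and Maf, a transcription factor, also had an unadjusted p below 0.05, with log2 fold changes of -0.36 and -0.17. Stab1, a scavenger receptor, was at -0.01 (standard error 0.15). The list summed to 271 to 316 CPM in the CCI group and 337 to 344 CPM in the sham group, and most of that sum is genes such as Gas6 and Maf that other cells of the ganglion also express. Of the monocyte list, 6 genes of 10 were tested and 0 were called in either direction, with a median of -0.10. An unadjusted p under 0.05 in edgeR's test was found for 2 of them (10.7% of all rows had one), in opposite directions, Vcan at -0.47 and Cd44 at 0.49. The counts differ between lists, but the difference between lists was not tested.

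Lymphocyte genes were near the detection limit. None of 8 T cell genes found reached the filter, and Cd3e and Cd3d had no count in 3 and 4 of the 6 libraries. Of 6 B cell genes 1 was tested and not called. The muscle genes that set sham 1 apart bear on the members as follows. Without sham 1 the log2 fold changes were 0.84 for Cd68, 1.05 for Lyz2, 1.99 for Arg1, -0.25 for Cd163, 0.33 for Mrc1 and -0.18 for Lyve1, and the calls of these 6 genes did not change, while Tmem119 lost its call. The fibroblast sum was lowest in CCI 1, the library with the highest Cd68, Lyz2, Tmem119, Arg1, Mrc1 and, among CCI libraries, Cd163. Its part in these values was not tested, and without CCI 1 the log2 fold changes of Cd68, Lyz2 and Arg1 were 0.72, 0.79 and 1.59, still called.

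**Figure D4:**
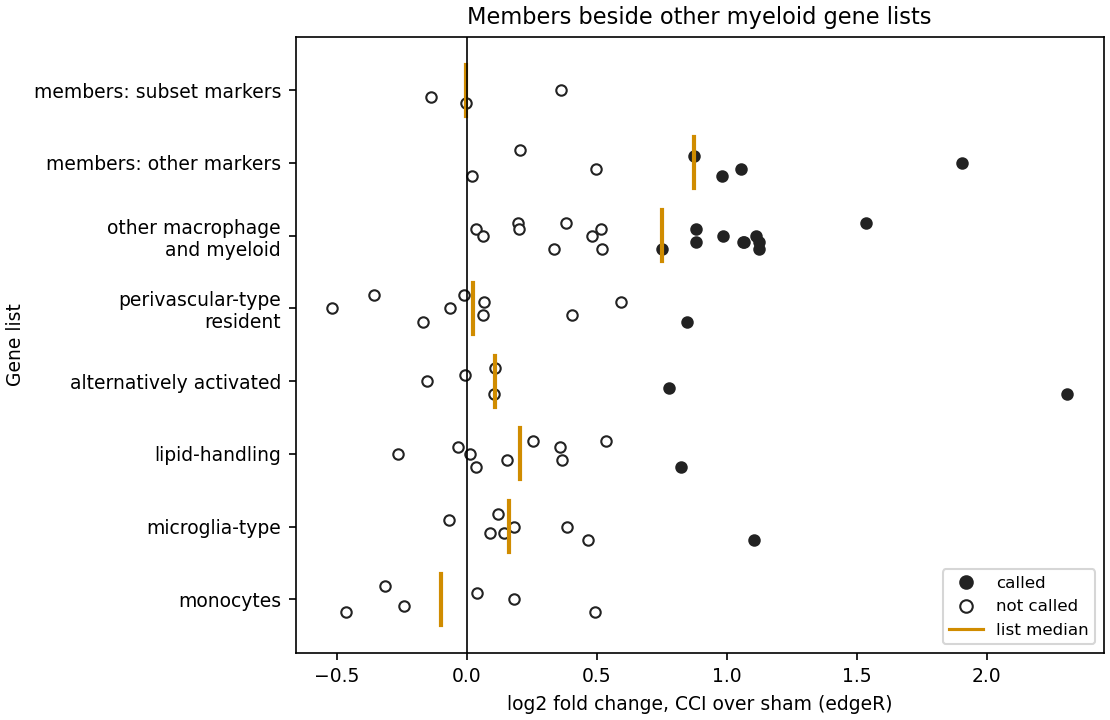
Log2 fold change, CCI over sham, of each tested gene of the members and of 6 other myeloid lists, filled where called, with an orange line at each list median. The median is 0.87 for the other markers and 0.75 for other macrophage and myeloid genes, and -0.0033 for the subset markers and 0.03 for other perivascular-type genes.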

How the data were processed

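The count and FPKM values of 6 rat DRG libraries, 3 CCI and 3 sham, were used as the authors deposited them in 1 table. Per the paper's methods, the authors aligned filtered reads with HISAT to a rat genome they call V101, assembled transcripts with StringTie and estimated levels with StringTie and edgeR. The submitters' processing notes name HISAT2 2.0 and StringTie 1.3.0. The counts are whole reads per gene row, without normalization, and the FPKM values are made by the authors from them, with a small constant in place of 0. Groups follow the labelled surgery.

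Counts were tested with edgeR 4.0.16 (quasi-likelihood, TMM factors, trended prior) on all rows whose FPKM averaged 0.5 or more, and p-values were adjusted over all of them by the Benjamini-Hochberg method. The standard error was derived from the test, as the size of the log2 fold change divided by the square root of the F statistic. Intervals are 95% intervals from it and the degrees of freedom of the fit. CPM values use the TMM-scaled library sizes. Ratios between members were compared by an exact permutation test. Motif searches used RefSeq promoters. The rule for named genes took the 10 members, list genes that were called or are among the first 3 of their list, and the genes of most similar pattern, of which some are not reported here. Other list genes were named after their values were seen, to show what moved against or made up a list. The members and lists were chosen with earlier results of these data known. Symbols of list genes that were not found were not analysed here. Alternatives were RLE and upper-quartile factors, a stricter limit of 1 on the mean FPKM, no filter, DESeq2 1.42.0, limma 3.58.1 on log2(FPKM + 0.1) and log2(FPKM + 1), a robust prior, protein-coding rows alone, the replicate number as a block and leaving out each library. Summing the Cd163 rows was added after seeing the data. The tests were tried on simulated counts. R 4.3.3 and Python 3.11.15 with scipy 1.17.1 were used.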

Additional observations from a re-analysis of the deposited data

How the results depend on the processing

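Over 160 refits of single members, 137 kept direction and side of the limits, 9 lost a call (all Tmem119), 2 gained one (Aif1) and 12 changed sign (Cd163, Adgre1 and Lyve1, none called). Cd68, Lyz2 and Arg1 were called in all of their 16 alternatives. With 1 library left out, the log2 fold change ran from -0.33 to 0.56 for Cd163, from -0.094 to 0.11 for Adgre1 and from -0.35 to 0.11 for Lyve1. Cd163 was also positive at a mean FPKM of at least 1 (0.0002), with protein-coding rows alone (0.0108), with limma on log2(FPKM + 1) (0.037) and log2(FPKM + 0.1) (0.0822), and with the replicate block (0.0854). The cause was not tested. The 3 members that passed an adjusted p under 0.05 with DESeq2 were 0 in the main edgeR fit. At the study's limits 1022 rows were called in all, and 571 with limma on log2(FPKM + 1) or 468 with protein-coding rows alone, where fewer rows were tested. At an adjusted p under 0.05, 17 rows were higher and 8 lower, against 427 and 320 with DESeq2, 41 and 35 with protein-coding rows alone and, with 1 library left out, 3 to 40 and 3 to 21.

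The labels number the replicates in both groups. Over all rows tested, same-number libraries did not deviate together (r of -0.0106, -0.0218 and -0.0547 for replicates 1, 2 and 3), and other pairs had r from -0.0153 to 0.0365. Whether a number marks a shared litter, day or batch was not tested, and this correlation would not show one that moves few genes. The replicate block left 3 members called higher instead of 4, 0 called lower and 0 at an adjusted p under 0.05, with 935 rows called at the study's limits and 0 rows at an adjusted p under 0.05. The log2 differences of the ratios to Cd68 (-0.79 for Cd163, -0.52 for Mrc1, -1.05 for Lyve1) and of the means (-0.71) are equal in the block, since all 3 numbers occur in both groups. Precision is limited by 3 rats a group, and for Tmem119 and Arg1 also by counts as low as 43 and 47.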

Other observations

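The genes whose log2 CPM was most like that of a member over the 6 libraries were sought among 13711 other protein-coding rows, as a description. With 6 points high correlations are common, and each r includes the difference between the groups. An r above 0.9 was found for 492 rows with Cd68, 178 with Mrc1, 86 with Lyve1 and 76 with Cd163. The rows nearest to Cd68 were Csrnp1 (Pearson's r = 0.999), A3galt2 (r = 0.999) and Tgm1 (r = 0.997). Those nearest to Mrc1 were a joined row of Cryba1 and Nufip2 (r = 0.997), Akna (r = 0.996) and Arrdc4 (r = 0.990). Rows near to Cd163 included AABR07052443 (r = 0.983) and Igdcc4 (r = 0.978), and those nearest to Lyve1 were Crnkl1 (r = 0.986), Lrrc45 (r = 0.978) and Pcdhgb7 (r = 0.978).  Among members, Cd68 was closest to Lyz2 (r = 0.966) and Arg1 (r = 0.963), while Cd163 had r = 0.621 with Mrc1 and r = 0.560 with Lyve1. Mrc1 was closer to Aif1 (r = 0.866), Arg1 (r = 0.855), Cd68 (r = 0.823) and Lyz2 (r = 0.712) than to Cd163 or Lyve1 (r = 0.507). With 6 libraries these r values are imprecise, so they do not decide whether the 3 subset markers share 1 pattern across libraries.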
